A study of Mus musculus with 2 samples.

Results

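The Wnt ligands, their receptors and the secreted proteins that modulate them were examined in gastrocnemius, the large calf muscle. Members are the protein-coding genes whose symbol is Wnt, Fzd, Sfrp, Dkk or Rspo with a number, plus Lrp5, Lrp6, Frzb, Ror1, Ror2 and Ryk. They were selected by symbol and gene biotype. The family was taken up with earlier levels and library differences of these data known, so the values below are a description and carry no test. The rule found 47 members among 22028 protein-coding genes and 55536 genes in all. They are 19 Wnt ligands, 10 Frizzleds, 2 Lrp co-receptors, Ror1, Ror2 and Ryk, the 5 genes of the Sfrp and Frzb family, 4 Dkk genes and 4 R-spondins.

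Total RNA came from male B6CASTF1/J mice aged 2 months, first-generation hybrids of the B6 and CAST strains, with no treatment or genetic change named in the labels. The single group holds 2 libraries, replicate 1 and replicate 2. Each took 300 ng of RNA, to which ERCC control RNAs had been added. The labels number them as biological replicates from separate tissue samples but give 1 donor entry for both, and do not say outright that they came from separate animals. A difference between the libraries may thus be technical in part, which was not tested. Expected counts over genes came to 42724520 and 42280091, and the fast-fibre genes that define this muscle summed to 88079 and 68415 TPM (transcript abundance per length, scaled to a fixed total per library).

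Wnt proteins are secreted, lipid-modified signals that bind the cysteine-rich domain of Frizzled receptors. With Lrp5 or Lrp6 beside the Frizzled, the signal stabilises beta-catenin. Ror and Ryk receptors carry other branches, Sfrp and Frzb proteins bind Wnts outside the cell, Dkk proteins block Lrp5 and Lrp6, and R-spondins amplify the signal through Lgr receptors. In adult muscle the pathway is known for its part in satellite cells, fibro-adipogenic progenitors and the nerve-muscle synapse.

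Receptor RNA exceeded ligand RNA in both libraries. Over the 10 Frizzleds the summed level was 42.8 (replicate 1) and 53.9 TPM (replicate 2), and over Lrp5 and Lrp6 it was 26.04 and 26.96 TPM. The 19 ligands together reached 13.8 and 16.0 TPM, the Sfrp and Frzb family 6.7 and 6.5 TPM, the Dkk genes 2.10 and 2.91 TPM and the R-spondins 0.80 and 1.16 TPM. Of the 47 members, 13 (27.7%) reached 1 TPM in both libraries, against 44.6% of all protein-coding genes. The authors deposited gene and transcript tables quantified from alignments, the first tables, and transcript tables quantified from the reads, the second tables. In the first tables, from which all values come unless the second are named, 7 further members had no read in either library, and 4 of these were at 0 in the second tables too. A count of 0 is compatible with as many as 3 reads per library.

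**Figure D1:**
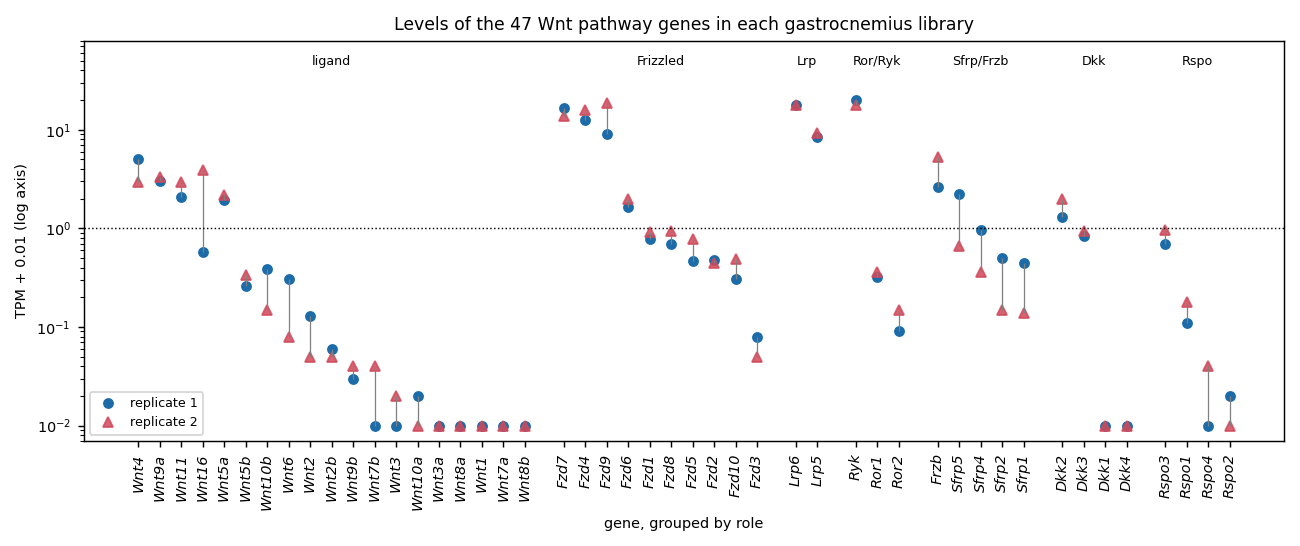
TPM plus 0.01 on a log axis for each of the 47 genes in replicate 1 (circles) and replicate 2 (triangles), grouped by role; the dotted line marks 1 TPM. Ryk, Lrp6, Fzd7, Fzd4 and Fzd9 lie highest, and Wnt16 has the widest gap between the libraries.

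Several members differed between the libraries. Ratios were taken as replicate 2 over replicate 1 on scaled counts, and a gene was called where it differed by at least 1.5-fold and its 95% interval for counting error left out equal levels. Genes with at least 20 reads over both libraries entered, which 30 of the 47 members had. Of these 30, 12 (40.0%) were called, against 8.43% of the 14827 genes that entered. Those higher in replicate 2 were Wnt16, Fzd9, Rspo3, Frzb, Fzd10 and Dkk2, 6 members against a background of 4.81%. Those higher in replicate 1 were Sfrp1, Sfrp2, Sfrp4, Sfrp5, Wnt4 and Wnt10b, 6 members against 3.62%. Among genes of 20 to 1000 reads, 10 of 23 members (43.5%) and 9.71% of protein-coding genes were called. The median log2 ratio was 0.22 over the 30 members and 0.00 over all genes that entered.

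With 1 library on each side, these ratios have no replicate check and no p-value, and intervals cover counting error alone. The read minimum was applied to the sum, so a member high in 1 library, such as Wnt10b or Sfrp2, can enter through that library. In whole tissue, fewer cells of a type and less RNA per cell cannot be told apart.

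**Figure D2:**
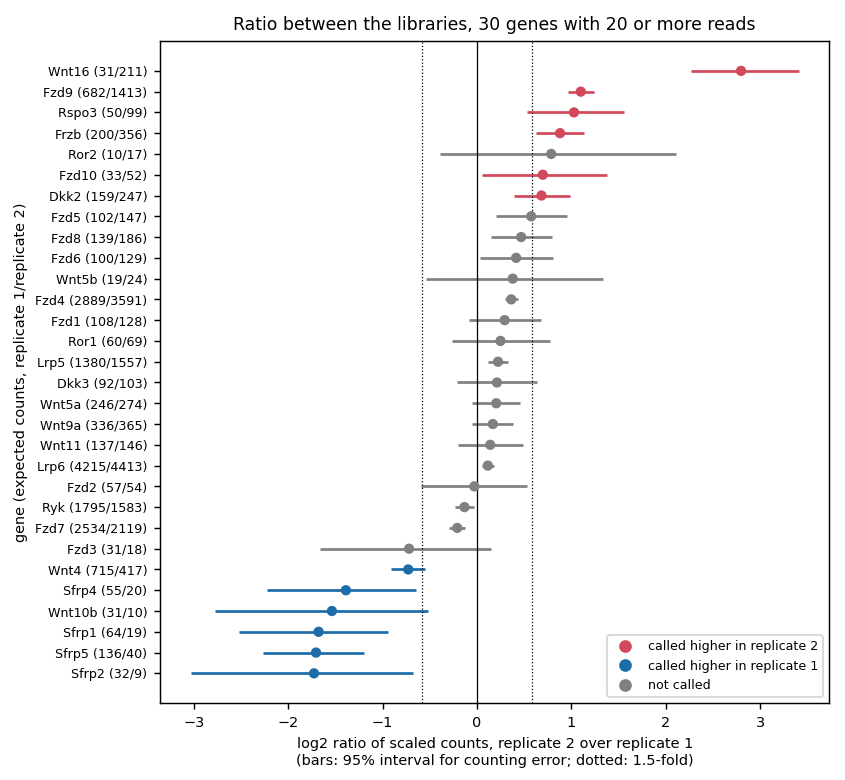
Log2 ratio of scaled counts, replicate 2 over replicate 1, for the 30 members with 20 or more reads, with the 95% interval for counting error and the counts of both libraries beside each symbol. The 6 red genes were called higher in replicate 2 and the 6 blue genes in replicate 1; dotted lines mark 1.5-fold.

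Among the ligands, 5 made up nearly all of the RNA. Wnt4, a ligand known from kidney and synapse development (chromosome 4, 137277489 to 137299726, mm10), stood at 5.08 TPM (replicate 1) and 2.96 TPM (replicate 2). Wnt9a was at 3.04 and 3.30 TPM, Wnt11 at 2.07 and 2.94 TPM and Wnt5a, the main ligand of the beta-catenin-independent branch, at 1.92 and 2.17 TPM. Wnt16, known for its part in bone and joint tissue (chromosome 6, 22288227 to 22298522), stood at 0.56 TPM (replicate 1) and 3.90 TPM (replicate 2). Wnt4 thus led the ligands in replicate 1 and Wnt16 in replicate 2. Means were 4.02 ± 1.5 TPM for Wnt4, 3.17 ± 0.18 for Wnt9a, 2.50 ± 0.62 for Wnt11, 2.23 ± 2.36 for Wnt16 and 2.04 ± 0.18 for Wnt5a (SD, n = 2). The spread of Wnt16 and Wnt4 is wider than the steps between these means, so the order of the 5 is not settled by these libraries.

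Wnt16 held the widest difference of the family. It had 31 reads in replicate 1 and 211 in replicate 2, a 6.94-fold higher scaled count in replicate 2 (interval 4.81 to 10.6). A total of 17 of the 14827 genes that entered had a higher ratio. Its share of ligand reads was 2.00% in replicate 1 (exact Clopper-Pearson 95% interval 1.37 to 2.83) and 14.4% in replicate 2 (12.6 to 16.3). Transcript Wnt16-201, of 4 exons, held 98.2% and 99.5% of its TPM. In the second tables Wnt16 was at 0.78 and 5.42 TPM.

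Wnt4 went the other way. Its 715 reads in replicate 1 and 417 in replicate 2 made it 1.66-fold higher in replicate 1 (interval 1.47 to 1.88), and its share of ligand reads was 46.2% (43.7 to 48.7) and 28.4% (26.1 to 30.8). Wnt10b, a beta-catenin ligand known for restraining fat cell formation, had 31 and 10 reads, 2.90-fold higher in replicate 1 (interval 1.43 to 6.85). Wnt9a, Wnt11, Wnt5a and Wnt5b were not called, with log2 ratios of 0.17, 0.14, 0.20 and 0.38. Because Wnt4 and Wnt16 moved in opposite directions, the ligand sum had a smaller ratio between the libraries than either gene.

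**Figure D3:**
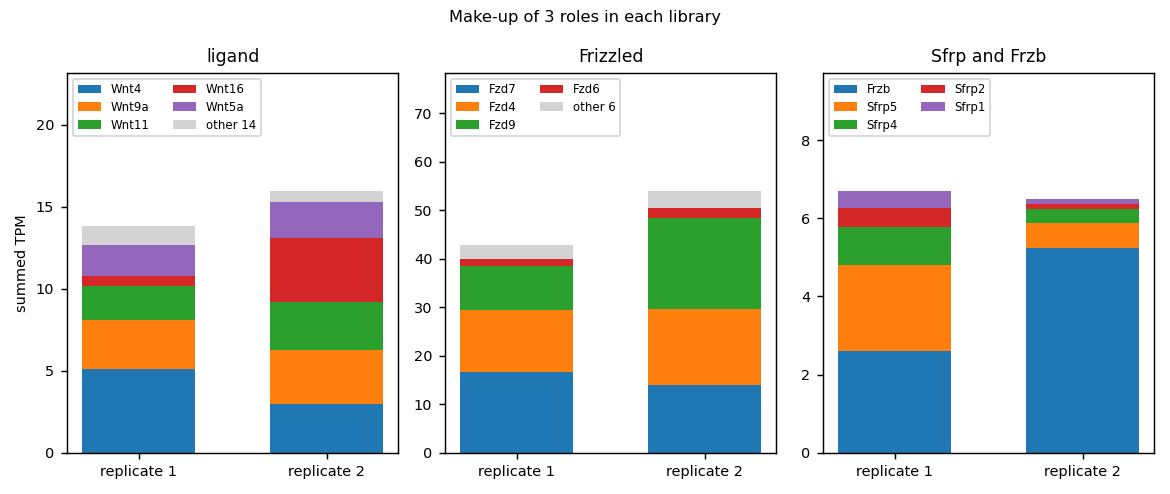
Summed TPM of the ligands, the Frizzleds and the Sfrp and Frzb family in each library, stacked by gene; grey holds the remaining members. Wnt16 (red, left) widens from 0.56 to 3.90 TPM, Fzd9 (green, middle) from 9.05 to 18.7 TPM, and Frzb (blue, right) from 2.61 to 5.23 TPM at a nearly equal family sum.

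The remaining ligands were near or at the floor. Wnt5b was at 0.25 and 0.33 TPM, Wnt10b at 0.38 and 0.14 TPM and Wnt6 at 0.30 and 0.07 TPM. Wnt2, Wnt2b, Wnt9b, Wnt7b, Wnt3 and Wnt10a had between 0 and 9 reads in a library. Wnt1, Wnt3a, Wnt7a and Wnt8b were at 0 in both kinds of table and both libraries, and Wnt8a had 0 reads in the first tables. Wnt1 and Wnt3a, typical activators of beta-catenin signalling, are among those at 0.

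In 4 places Wnt genes lie as neighbouring pairs with no protein-coding gene between them. Wnt9a and Wnt3a are 16.2 kb apart on chromosome 11 on opposite strands, and Wnt9a had 336 and 365 reads where Wnt3a had 0. Wnt10b and Wnt1, 11.7 kb apart on chromosome 15, had 31 and 10 reads against 0. Wnt6 and Wnt10a, 6.19 kb apart on chromosome 1, had 13 and 5 reads against 1 and 0. Wnt9b and Wnt3, 24.3 kb apart on chromosome 11, had 3 and 4 reads against 0 and 1, which at this depth shows no difference.

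Wnt11, a ligand of the beta-catenin-independent branch in most settings, was read mainly from a pair of start regions on chromosome 7 that lie 3733 bases apart. A further start, at 98847806, had 0 and 5.25 expected counts. Transcripts from the downstream start (98838845 to 98838898) held 56.9% of its reads in replicate 1 (exact interval 48.2 to 65.4) and 56.2% in replicate 2 (47.7 to 64.4), and these intervals overlap. By TPM that start held 65.05% and 53.2% in the first tables and 59.2% and 70.5% in the second. The direction thus differs between the kinds of table, and no difference in start use is read from them. The upstream start (98835112 to 98835131) held 59.0 and 59.2 expected counts. Within the downstream group, Wnt11-205, which codes for protein, held 78.04 expected counts in replicate 1 and 49.3 in replicate 2 (deposited posterior SD 13.6 and 14.2). Wnt11-204, a transcript annotated for nonsense-mediated decay, had 0 and 32.3 (posterior SD 6.85 and 8.57). The error of dividing reads among transcripts that share exons is not part of the exact intervals.

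As a description, the bases before both Wnt11 starts and before Wnt16 are shown, and their part in start use or ratios was not tested. They are the 250 bases upstream of the start from RefSeq on GRCm38.p6, whose table matched 31 of the 47 members with 34 sequences. Capitals mark motifs found on either strand: a TATA box (TATAAA), a GC box (GGGCGG), a TCF/LEF motif (CTTTGAT or CTTTGTT) and an E box (CANNTG). The windows are chr7:98834862-98835111 and chr7:98838595-98838844 for Wnt11 and chr6:22287977-22288226 for Wnt16, all on the plus strand.
Wnt11 upstream start: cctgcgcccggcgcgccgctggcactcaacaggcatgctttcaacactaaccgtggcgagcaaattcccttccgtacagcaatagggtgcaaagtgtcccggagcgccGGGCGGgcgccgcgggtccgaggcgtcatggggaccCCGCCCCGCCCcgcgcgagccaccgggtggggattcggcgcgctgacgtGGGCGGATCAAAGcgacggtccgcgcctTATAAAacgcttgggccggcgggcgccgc
Wnt11 downstream start: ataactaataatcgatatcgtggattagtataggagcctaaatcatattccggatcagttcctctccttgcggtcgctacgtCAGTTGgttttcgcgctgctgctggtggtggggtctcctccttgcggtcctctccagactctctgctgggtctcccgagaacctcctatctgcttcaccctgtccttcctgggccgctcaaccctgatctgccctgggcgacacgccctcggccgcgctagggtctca
Wnt16: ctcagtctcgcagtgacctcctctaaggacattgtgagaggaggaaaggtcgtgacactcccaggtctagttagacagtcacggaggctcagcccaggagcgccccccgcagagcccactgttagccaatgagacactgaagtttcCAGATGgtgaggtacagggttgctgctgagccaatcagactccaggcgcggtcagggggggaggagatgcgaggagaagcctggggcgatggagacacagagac

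The Wnt11 windows differ in make-up. The upstream one has 70.8% G and C and 37 CpG, with 1 TATA box that begins 29 bases before the start, 4 GC boxes, of which a pair overlap by 1 base, and 1 TCF/LEF motif 51 bases before the start, next to a GC box. The downstream one has 56.8% G and C, 16 CpG and 1 E box. The Wnt16 window has 59.2% G and C, 9 CpG and 1 E box. Over all 32851 windows of this length in the table, 12.4% hold the TATA box, 32.7% the GC box, 3.21% and 5.03% the forms CTTTGAT and CTTTGTT, and 66.2% the E box. Of the 34 member windows, 25 (73.5%) hold a GC box and 4 matches to a TCF/LEF form were spread as 2 windows with each form. Median G and C content was 67.4% in member windows and 52.4% in all. A match describes letters and is not a binding site.

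Frizzled RNA was led by Fzd7, Fzd4 and Fzd9. Fzd7, the Frizzled known as the Wnt7a receptor of satellite cells, stood at 16.6 TPM (replicate 1) and 13.9 TPM (replicate 2). Fzd4, the Norrin and Wnt receptor of blood vessels, was at 12.7 and 15.8 TPM. Fzd9, a receptor known at the nerve-muscle synapse and in bone (chromosome 5, 135248938 to 135251230, a gene of 1 exon), was at 9.05 and 18.7 TPM. Fzd7 was thus highest in replicate 1 and Fzd9 in replicate 2, and the means of 15.3 ± 1.94, 14.2 ± 2.17 and 13.9 ± 6.84 TPM (SD, n = 2) do not differ beyond their spread.

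Fzd9 had 682 and 1413 reads, 2.14-fold higher in replicate 2 (interval 1.95 to 2.35), and is the member with the most reads among the 12 called. Fzd10, at 0.30 and 0.48 TPM, was 1.62-fold higher in replicate 2 on 33 and 52 reads (interval 1.03 to 2.60). Fzd5 lay just under the 1.5-fold limit with 102 and 147 reads and a log2 ratio of 0.57, and was called with ERCC scaling, at 0.63. It was not called with DESeq2 size factors (0.55), with total counts (0.54) or in the second tables (0.46). Fzd7 and Fzd4 were not called, at -0.21 (interval -0.29 to -0.13) and 0.36 (0.29 to 0.43). The call was met in 2 of the 10 Frizzleds and not in 8, beside 8.43% called over all genes that entered.

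The lower Frizzleds were Fzd6 at 1.63 and 1.98 TPM, Fzd1 at 0.77 and 0.91, Fzd8 at 0.69 and 0.92, Fzd5 at 0.46 and 0.77, Fzd2 at 0.47 and 0.44 and Fzd3 at 0.07 and 0.04. Of the 10 Frizzled genes 6 have a single exon, which no other member has. Fzd6 has 5 transcripts, and those annotated as not coding held 63.4% and 63.8% of its TPM but 15.3% and 21.2% of its expected counts. Its TPM therefore rests in large part on a few reads given to short transcripts.

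The co-receptors differed little between the libraries. Lrp6 was at 17.7 TPM in both, a mean of 17.7 ± 0.03, and Lrp5 at 8.38 and 9.26 TPM (SD 0.62, n = 2). Lrp6 lies on chromosome 6 (134446476 to 134566965) and has up to 23 exons, and its full-length transcript Lrp6-201 held 72.1% and 75.8% of its TPM. Lrp6-205, a retained intron of 941 bases, held 16.6% and 16.0% of TPM. By expected counts Lrp6-205 held 2.02% and 1.86%, and Lrp6-201 96.2% and 96.8%. Neither gene was called, with log2 ratios of 0.11 (interval 0.05 to 0.18) for Lrp6 and 0.22 (0.12 to 0.33) for Lrp5.

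Ryk, an atypical Wnt receptor with an inactive kinase domain, had the highest mean of all members, 20.2 and 17.7 TPM. Its mean of 18.9 ± 1.77 TPM does not differ from that of Lrp6 beyond its spread, and exceeds that of 89.1% of protein-coding genes. The coding transcripts Ryk-201 and Ryk-203 held 59.4% and 36.3% of its TPM in replicate 1 and 52.1% and 39.9% in replicate 2. In the second tables Ryk-201 held 48.99% and 45.2%, and Ryk-203 47.5% and 50.01%, so the leading form differs between the kinds of table in replicate 2 and not in replicate 1. Ror1 and Ror2, receptor kinases that bind Wnt5a, were low, at 0.31 and 0.35 TPM and at 0.08 and 0.14 TPM. None of the 3 was called.

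In the Sfrp and Frzb family the sum was nearly equal in both libraries and the make-up was not. Frzb, also called Sfrp3 and known from cartilage and tendon (chromosome 2, 80411970 to 80447625), stood at 2.61 TPM (replicate 1) and 5.23 TPM (replicate 2). Sfrp5 was at 2.20 and 0.65 TPM, Sfrp4 at 0.96 and 0.35, Sfrp2 at 0.49 and 0.14 and Sfrp1 at 0.44 and 0.13 TPM. Each of the 4 Sfrp genes was higher in replicate 1, and together they had 287 reads there against 88 in replicate 2. Frzb held 41.1% of the family's reads in replicate 1 (exact interval 36.7 to 45.6) and 80.2% in replicate 2 (76.2 to 83.8).

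The 4 Sfrp genes lie on 4 chromosomes, 8, 3, 13 and 19, and had similar ratios. Scaled counts were higher in replicate 1 by 3.20-fold for Sfrp1 (interval 1.93 to 5.76), 3.31-fold for Sfrp2 (1.60 to 8.19), 2.62-fold for Sfrp4 (1.57 to 4.68) and 3.26-fold for Sfrp5 (2.30 to 4.8). The intervals overlap one another, so no Sfrp gene stood apart from the others at this depth. Between 63 and 114 of the 14827 genes had a lower ratio than each of them. Frzb went against them, 1.84-fold higher in replicate 2 on 200 and 356 reads (interval 1.54 to 2.20).

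Frzb was partly read from a short transcript. Frzb-202, annotated as a processed transcript of 830 bases that begins within the gene at 80438630, held 35.2% of Frzb TPM in replicate 1 and 46.2% in replicate 2. In the second tables it held 41.8% and 51.7% of TPM, the larger share in replicate 2. By reads in the first tables it held 11.5% (exact interval 7.43 to 16.8) and 17.1% (13.4 to 21.5). Coding transcript Frzb-201 had 177 and 295 expected counts, so the difference between libraries was present in it as well.

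Windows before 2 of the 4 Sfrp genes are shown as a description. They are chr19:42202253-42202502 on the minus strand for Sfrp5 and chr3:83766071-83766320 on the plus strand for Sfrp2, 5′ to 3′ with the same motifs in capitals.
Sfrp5: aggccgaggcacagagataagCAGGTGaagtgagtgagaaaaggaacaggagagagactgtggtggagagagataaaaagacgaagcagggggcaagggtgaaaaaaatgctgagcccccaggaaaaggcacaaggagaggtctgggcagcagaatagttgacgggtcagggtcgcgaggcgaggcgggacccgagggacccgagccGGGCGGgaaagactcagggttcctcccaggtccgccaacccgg
Sfrp2: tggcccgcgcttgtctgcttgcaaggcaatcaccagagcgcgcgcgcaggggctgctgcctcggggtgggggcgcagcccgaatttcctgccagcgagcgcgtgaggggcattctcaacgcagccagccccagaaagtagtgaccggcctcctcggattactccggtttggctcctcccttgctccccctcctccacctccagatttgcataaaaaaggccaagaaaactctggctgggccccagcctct

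The Sfrp5 window holds 1 GC box and 1 E box in 59.6% G and C, and the Sfrp2 window none of the motifs in 63.6%. With none in the Sfrp2 window, the windows cannot share a motif of this set. No match says only that these letters are not in this stretch. A part of these bases in the ratios was not tested.

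Dkk and R-spondin genes were scarce. Dkk2, a modulator that can block or weakly activate through Lrp6, was at 1.28 and 1.99 TPM, 1.60-fold higher in replicate 2 on 159 and 247 reads (interval 1.31 to 1.97). Dkk3, which does not bind Lrp6 as other Dkk proteins do, was at 0.82 and 0.92 TPM and was not called. Dkk1 and Dkk4 had 0 reads in the first tables and up to 0.070 TPM in the second. Rspo3, the R-spondin of blood vessels, was at 0.69 and 0.96 TPM, 2.04-fold higher in replicate 2 on 50 and 99 reads (interval 1.44 to 2.94). Rspo1 had 4 and 5 reads, Rspo2 1 and 0 and Rspo4 0 and 2.

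**Figure D4:**
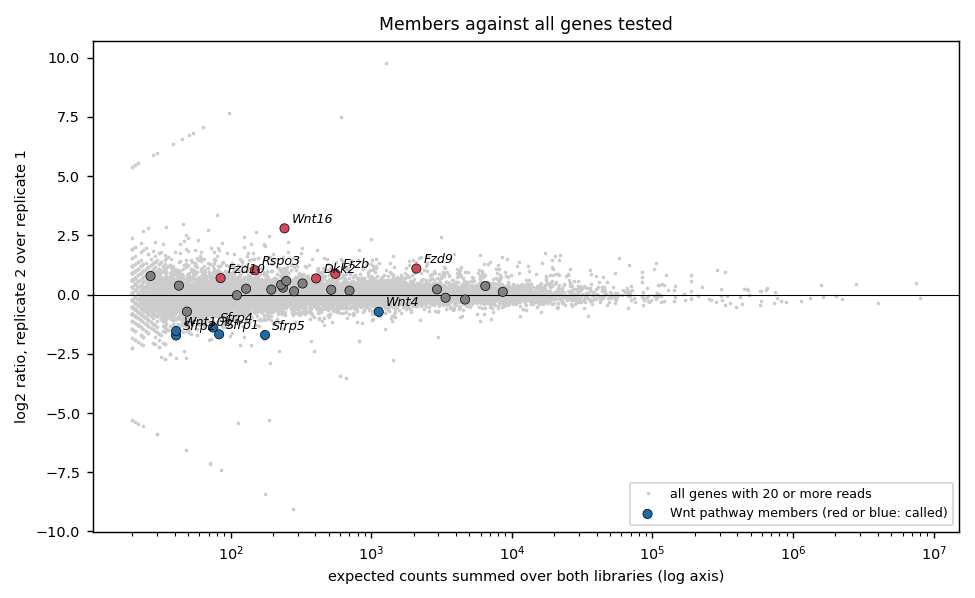
Log2 ratio, replicate 2 over replicate 1, against the expected counts summed over both libraries (log axis), for all 14827 genes with 20 or more reads (grey dots) and the 30 members (large points; red and blue were called, grey were not). Wnt16 lies above and the 4 Sfrp genes below most genes of their read depth.

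Other genes of the pathway, taken from lists by role, are given by their counts, to be read against the 8.43% of all genes that were called, at which a list of this size would hold few calls or none. None of 20 destruction complex and Dishevelled genes was called, with log2 ratios from -0.24 to 0.14, led by Csnk1a1 (90.03 and 76.6 TPM), beta-catenin (Ctnnb1, 83.6 and 82.3 TPM) and Dvl1 (47.8 and 44.1 TPM). None of 13 nuclear partners was called, led by Bcl9l (15.0 and 17.0 TPM), Tle1 (8.96 and 8.37 TPM) and Tle4 (6.97 and 7.93 TPM). None of 12 planar polarity genes was called, led by Rac1 (92.5 and 80.1 TPM), Rhoa and Prickle3. None of 4 genes of Wnt secretion and release that entered was called, among them Wls, the carrier of Wnt proteins to the surface, at 9.54 and 8.36 TPM, Tmed5 at 10.3 and 12.4 TPM and Porcn, the enzyme that adds the lipid, at 2.12 and 1.69 TPM.

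Of 12 genes widely used as targets of beta-catenin that entered, 1 was called, a share near the 8.43% over all genes. It was Tnfrsf19, at 1.10 and 1.58 TPM with a log2 ratio of 0.70 (interval 0.35 to 1.06). Axin2, the target most used as a readout, was at 3.64 and 4.10 TPM with a log2 ratio of 0.53 (interval 0.30 to 0.75). Its interval left out equal levels, but the ratio was under the 1.5-fold limit. Znrf3 was at 2.71 and 2.23 TPM and Myc at 1.59 and 1.5 TPM. The list's median log2 ratio was 0.03.

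Of 17 other surface and secreted regulators 5 were called, beside 8.43% of all genes. Lgr6, a receptor for R-spondins, had 7 and 41 reads and a log2 ratio of 2.52 (interval 1.43 to 4.00). Wif1, a secreted Wnt inhibitor, had 36 and 82 reads and 1.23 (0.65 to 1.84). Higher in replicate 1 were Dact2, a Dishevelled-binding protein, with 97 and 27 reads and -1.78 (-2.47 to -1.17), and the glypicans Gpc6 at -0.72 and Gpc3 at -0.60. The most abundant genes of the list, Gpc1 (100 and 89.8 TPM), Musk (26.1 and 20.1 TPM) and Kremen1 (15.4 and 19.3 TPM), were not called.

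Markers of several cell types also differed between the libraries, and their part in the differences of members was not tested. With 2 libraries, any gene that differs goes in the direction of some called members. Over all 14827 genes that entered, 4.81% were called higher in replicate 2 and 3.62% higher in replicate 1, the shares to set beside the counts below. Slow-fibre genes were higher in replicate 2 in 12 of 12, summing to 1537 and 3832 TPM, led by Myl2 (304 and 800 TPM, a myosin light chain), Myl3 and Myh7. The other 9 were Tnnt1, Tpm3, Tnnc1, Atp2a2, Myoz2, Tnni1, Casq2, Pln and Myh7b. Tendon genes were higher there in 8 of 12, summing to 63.1 and 103 TPM, with Fmod at 21.03 and 38.1 and Tnmd, a defining tendon gene, at 2.60 and 4.64 TPM. Chad, Scx, Comp, Cilp2, Kera and Col11a1 were the other tendon genes called, and Thbs4, at 23.7 and 32.9 TPM, was not. Fibroblast and fibro-adipogenic genes were higher in replicate 1 in 6 of 15 and in replicate 2 in 1, Col1a1, summing to 646 and 494 TPM. Gsn, the most abundant, was at 265 and 137 TPM and made up most of the difference between the sums. Dcn was at 106 and 87.4 TPM, Col1a2 at 49.7 and 72.4, Ly6a at 22.1 and 22.8 and Lum at 2.92 and 2.64. None of these was called. Over the list the median log2 ratio was -0.41. Col3a1, Dpt and Clec3b were also called higher in replicate 1. Pi16 was at 8.58 and 3.24 TPM, Dpp4 at 1.82 and 0.97 and Pdgfra, which was not called, at 6.5 and 4.27 TPM.

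Fast-fibre genes were lower in replicate 2 in 12 of 12, with log2 ratios from -0.52 to -0.19 and intervals that all left out equal levels, although 0 of 12 reached 1.5-fold. The most abundant were Tnnt3, Mylpf and Myh4. In the endothelial, mural, macrophage, Schwann cell and satellite cell lists the calls are none or few, near the 8.43% of all genes. Endothelial genes summed to 150 and 153 TPM with 1 of 12 called (Emcn), mural genes to 174 and 155 with 1 of 10 (Tagln) and macrophage genes to 31.5 and 26.1 with 1 of 10 (Cd163). Schwann cell genes, at 37.7 and 31.9 TPM, and satellite cell genes, at 58.4 and 59.1 TPM, had none called among 9 and 10. Of 6 adipocyte genes that entered, Cfd was called higher in replicate 1 and Pparg in replicate 2, above the 8.43% of all genes. The list's median log2 ratio was -0.84. Adipoq (14 and 6 reads), Cidec (21 and 11) and Plin1 (19 and 10) had more reads in replicate 1 and were not called. The list's sum of 62.0 and 70.2 TPM was mostly Fabp4. The most abundant genes were Ly6c1, Egfl7 and Cdh5 for endothelium, Rgs5, Abcc9 and Acta2 for mural cells, Lyz2, C1qb and Csf1r for macrophages and Itga7, Sdc4 and Cdh15 for satellite cells. No gene of these marker lists was at 0 in both libraries.

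**Figure D5:**
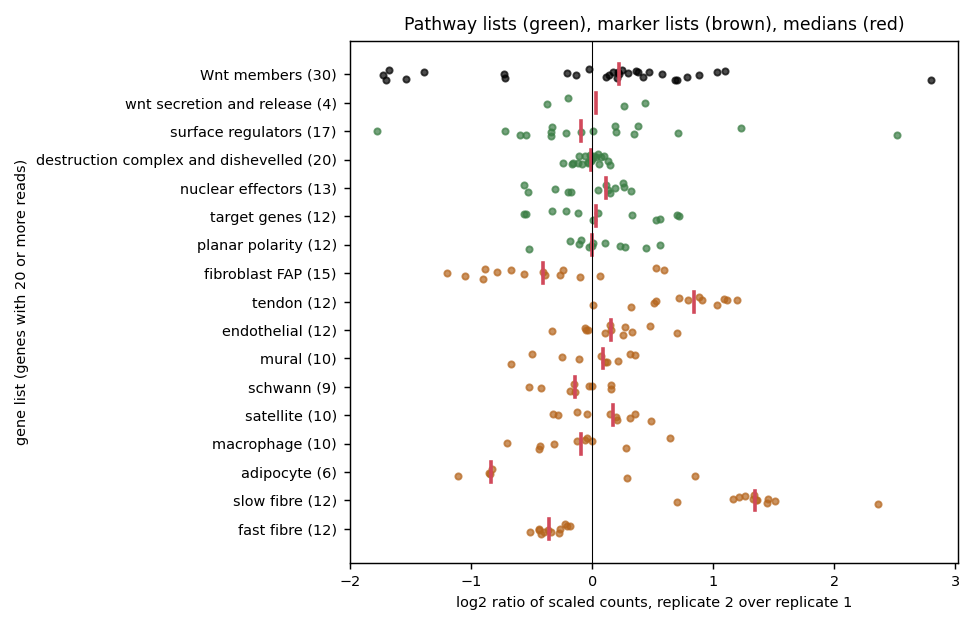
Log2 ratio, replicate 2 over replicate 1, of each gene with 20 or more reads in the Wnt family (black), the other pathway lists (green) and the marker lists (brown), with each list's median as a red bar and its number of genes in brackets. The Wnt family spans -1.73 to 2.80, while the destruction complex and Dishevelled genes span -0.24 to 0.14.

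Levels and calls were compared between both kinds of table. Members at 1 TPM in both libraries had 1.24 to 1.70 times as high a TPM in the second tables, with a median of 1.39, so a level holds for its own kind of table. The 12 called members were all called there too, in the same direction. The deposited posterior standard deviation of the count was 0 for every member at the gene level. Exons of 7 members overlap another gene, and no such gene had more than 1 read in a library.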

How the data were processed

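Total RNA-seq of 2 gastrocnemius libraries of 1 group was analysed. The first tables, per the file headers, contain the authors' expected counts and TPM per gene and transcript with the posterior standard deviation of the count, a score deposited by the authors. The second tables hold the authors' estimated counts and TPM per transcript, here summed to genes. All use mm10 and GENCODE M21, per the deposited notes, which name neither programs nor their versions. Reads of CAST alleles were counted against a B6-type reference. The notes do not say whether strand was used in counting.

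Symbols and gene identifiers came from the second tables, and coordinates and gene biotypes from the GENCODE M21 annotation. Numeric entries, with 1 and 0 reads, and ERCC RNAs (0.468% and 0.442% of counts) were left out of gene totals. Expected counts were rounded to whole numbers, scaled by TMM (edgeR 4.0.16, R 4.3.3), and 0.5 was added for ratios. DESeq2 1.42.0 gave alternative size factors. Intervals are exact Clopper-Pearson intervals at 95% (scipy 1.17.1). A quasi-likelihood test in edgeR needs residual degrees of freedom, which 1 library a side does not leave, so no p-value is given. The ratio code was tested on simulated data. Totals were 42925570 and 42467674 reads with spike-ins, so a count of 0 allows 0.0699 and 0.0706 CPM.

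Values in both libraries are named for members with a mean of at least 1 TPM, the 3 most abundant members of each role, called members and members at 0 in both kinds of table. In other lists the 3 most abundant and the called genes are named, except for the Schwann cell list, whose genes are not reported here by name. Fzd5, Pdgfra, Col1a2, Ly6a, Lum, Adipoq, Cidec, Plin1 and the other low members named were picked after their values were seen. Members and lists were chosen with earlier results of these data known.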

Additional observations from a re-analysis of the deposited data

How the results depend on the processing

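Each choice was changed on its own. All 12 called members kept their call and direction with DESeq2 size factors, total counts, ERCC counts, 1 added to each count, a summed count of 1 and the second tables, and Fzd5 was added with ERCC counts. At 2-fold, 3 members were higher in replicate 2, with Dkk2, Fzd10, Frzb and Wnt4 no longer called. By the interval alone, without a fold, 12 were higher in replicate 2 and 8 in replicate 1. At a summed count of 50, Sfrp2 and Wnt10b did not enter. The number of members at 1 TPM in both libraries was 15 in the second tables, 19 at 0.5 TPM, 19 with TPM rescaled over protein-coding genes and 35 with any count above 0. It was 14 without replicate 1 and 14 without replicate 2. Shares over all genes were not computed for the changed settings of calls and levels. The 8.43% and 44.6% of the main settings are therefore no background for these counts. Leading transcripts were taken by the mean share of the 2 libraries, for the 9 members with several transcripts and a mean of at least 1 TPM. The leader was the same in both kinds of table for 7 of 9, with Fzd6 and Ryk as exceptions. In a single library it can differ. Frzb-202 led Frzb in replicate 2 of the second tables, and Wnt5a-201 led Wnt5a in replicate 2 of the first. No paired analysis was possible because there is 1 group of 2 libraries. A ratio of 2 libraries cannot be recomputed without 1 of them, so that alternative was not run. Depth limits members of under 20 reads, for which no difference was detectable.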
